A study of Mus musculus with 9 samples.

Results

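The nuclear genes for mitochondrial ribosomal proteins were followed in stable transfectants of RAW-264.7 cells, a mouse monocyte/macrophage line. They were chosen by name alone, as every row whose symbol starts with Mrpl or Mrps and a number, and 71 of the 16492 gene rows on the array met this rule, 46 named Mrpl and 25 named Mrps, each with 1 row. The 5 RAW-FoxQ1 clones (7.1, 7.2, 7.3, 7.4 and 7.5) carry the expression vector pEF6/V5-His with the coding fragment of mouse FoxQ1, a forkhead transcription factor, and the 4 RAW-vector clones (4, 5, 6 and 7) carry the empty vector. All clones grew under blasticidin S at 6 µg/ml with no further treatment, and each was measured on 1 Affymetrix array, so that each value is that of a clone and the spread between clones is the error. The vector drives its insert from the constitutive promoter of a human elongation factor gene, and clones that grew from single cells can differ from one another for reasons other than the insert. Per the RefSeq gene table, the mouse has 78 protein-coding genes with such names, and Mrpl4, Mrpl23, Mrpl48, Mrps10, Mrps18b, Mrps33 and Mrps36 were not analysed here.

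Mitochondria translate the few proteins encoded in their own DNA, all of them core subunits of the respiratory chain and of ATP synthase, on a ribosome of their own. Its ribosomal RNAs come from the mitochondrial genome, whereas all of its proteins are encoded in the nucleus, made in the cytosol and imported. Some of these proteins descend from bacterial ribosomal proteins and keep their place near the decoding centre, the peptidyl transferase centre and the tunnel exit, and others were added in the mitochondrial lineage, mostly at the outside of the particle. In macrophages the balance of respiration and glycolysis shifts with the state of activation, which makes the mitochondrial translation machinery part of the metabolic equipment of these cells.

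Because all of the proteins are imported, their genes are transcribed from nuclear promoters, many of which in mammals hold sites for NRF1 and for ETS family factors. Promoter sequences in RefSeq, build GRCm38.p6, matched 63 of the 71 members. The windows below are those of the 2 most increased and the 2 most decreased members that have an entry, and run from 150 bases before to 30 bases after the annotated start, 5′ to 3′. Capitals mark matches, on either strand, to the NRF1 core CGCANGCG, to the ETS element CCGGAAG or to the GC box GGGCGG.
Mrps22, chr9:98601650-98601829, minus strand: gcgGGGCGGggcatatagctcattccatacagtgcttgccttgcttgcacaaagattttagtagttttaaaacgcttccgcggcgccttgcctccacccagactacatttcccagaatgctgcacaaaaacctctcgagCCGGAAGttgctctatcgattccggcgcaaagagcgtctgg
Mrpl18, chr17:12916062-12916241, minus strand: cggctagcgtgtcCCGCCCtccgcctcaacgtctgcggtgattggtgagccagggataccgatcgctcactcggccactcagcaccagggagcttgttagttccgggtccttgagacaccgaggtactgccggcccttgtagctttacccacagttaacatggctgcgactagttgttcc
Mrpl45, chr11:97315566-97315745, plus strand: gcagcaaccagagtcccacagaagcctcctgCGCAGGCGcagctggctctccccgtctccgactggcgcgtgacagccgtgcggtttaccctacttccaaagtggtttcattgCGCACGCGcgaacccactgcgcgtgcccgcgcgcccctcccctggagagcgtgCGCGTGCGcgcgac
Mrpl43, chr19:45006413-45006592, minus strand: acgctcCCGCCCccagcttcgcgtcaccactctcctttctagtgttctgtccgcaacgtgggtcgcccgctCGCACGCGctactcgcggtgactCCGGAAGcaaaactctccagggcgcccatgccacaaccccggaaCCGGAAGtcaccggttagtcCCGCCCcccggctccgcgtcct
The Mrpl45 window holds 3 matches to the NRF1 core, at -119, -37 and 17 from the start, and no match to the other motifs. That of Mrpl43 holds 1 NRF1 core at -79, ETS elements at -56 and -12 and GC boxes at -144 and 9. The windows of both increased genes hold no NRF1 core. Mrps22 has an ETS element at -11 and a GC box at -147, and Mrpl18 has a GC box at -137.

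Over the full promoter entry of 250 bases before to 50 bases after the start, the NRF1 core was found in 30.2% of the members and in 14.1% of the 12594 protein-coding genes of the array with an entry. By call, which is described below, it was found in 29.6% of the members higher in RAW-FoxQ1 clones (8 of 27), in 46.7% of those lower (7 of 15) and in 19.0% of those not called (4 of 21). These groups are small, and a link between the motif and the direction was not tested. The ETS element CCGGAAG was found in 36.5% of the members against 14.2% of all genes, and the YY1 motif AANATGGCG in 17.5% against 4.0%. The E-box CACGTG (7.9% of the members against 9.2% of all genes) and the GC box GGGCGG (46.0% against 56.3%) were at or below the level of all genes. TGTTTA, the core bound by forkhead factors, was found in 4 members, or 6.3%, against 9.5% of all genes. Both strands were searched for every motif, and no motif contains another, though matches may overlap. A match is a run of letters and not a measured binding site.

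Before the members are compared, the labels and the cells were checked. Foxq1 had log2 values of 7.27 to 7.44 in RAW-FoxQ1 clones, against 6.94 to 7.01 in RAW-vector clones (log2 fold change 0.39, standard error 0.040, adjusted p = 4.7e-05 from limma), and no source used here gives the position of its probes relative to the coding fragment. The rise was 1.31-fold, and every value lay below the array median of 7.49, at the 42.5 percentile of mean signal. This is a small difference in a dim row, and it does not measure how much FoxQ1 the clones make. Of 11 macrophage markers 2 were called higher and 5 lower, and their mean values ran from 7.51 to 14.7 in RAW-FoxQ1 clones and from 6.93 to 14.6 in RAW-vector clones, with Lyz2, Csf1r, Cd14 and Cd68 all bright in both groups, whereas the 14 markers of T cells, B cells and fibroblasts had mean values of 6.36 to 7.66 in RAW-FoxQ1 clones and 6.37 to 7.86 in RAW-vector clones. Adgre1, the macrophage marker F4/80, was lower in RAW-FoxQ1 clones (log2 fold change -2.38). A pair of other quantities moved with the groups. The 27 poly-A spike-in probe sets, which report bacterial RNAs added before labelling, had means of 7.92 to 8.38 in RAW-FoxQ1 clones and 8.41 to 8.70 in RAW-vector clones. The mean of 25 genes of glycolysis and hypoxia was 9.11 to 9.98 in RAW-FoxQ1 clones and 10.2 to 10.9 in RAW-vector clones. The part of either in the results below was not tested. Calls with each mean as a covariate are given with the results. As in any bulk sample, fewer cells of a kind and less RNA per cell cannot be told apart.

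The mitochondrial ribosomal protein genes did not move as 1 block. Of the 71 members, 31 were higher in RAW-FoxQ1 clones and 17 lower (adjusted p under 0.05 from limma), and 23 did not pass. On the array as a whole 40.9% of the 16492 gene rows were called, 19.6% higher and 21.4% lower, against 67.6% of the members, 43.7% higher and 23.9% lower. The members gave bright signals, however, with a median at the 90.6 percentile of mean signal, and bright genes are called more often on these arrays. Among the 3125 gene rows in the signal range of the middle of the members (log2 means of 9.10 to 11.3, the 10 to 90 percentile of the members), 66.0% were called, 34.5% higher and 31.4% lower. The 57 members in this range included 27 higher (47.4%) and 14 lower (24.6%). The share of members called was close to that of equally bright genes, with more of them on the higher side. With the poly-A mean as a covariate 16 members were called higher and 7 lower, and with the glycolysis and hypoxia mean 9 higher and 7 lower. The 7 lower with the latter mean include Mrpl41 and Mrpl57, which were not called without a covariate. Of all gene rows 16.6% and 13.1% were called in these fits, against 40.9% without a covariate, so calls were lost across the array as well. Of the 48 called members 13 kept the call with both covariates, namely Mrps22, Mrps28, Mrpl18, Mrps12, Mrpl40, Mrpl46, Mrpl13, Mrpl38 and Mrpl37, higher, and Mrpl45, Mrpl43, Mrpl14 and Mrps34, lower. A further 11 lost it with 1 covariate and 24 with both. Each covariate was fitted alone, and here and below both covariates stands for these separate fits.

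**Figure D1:**
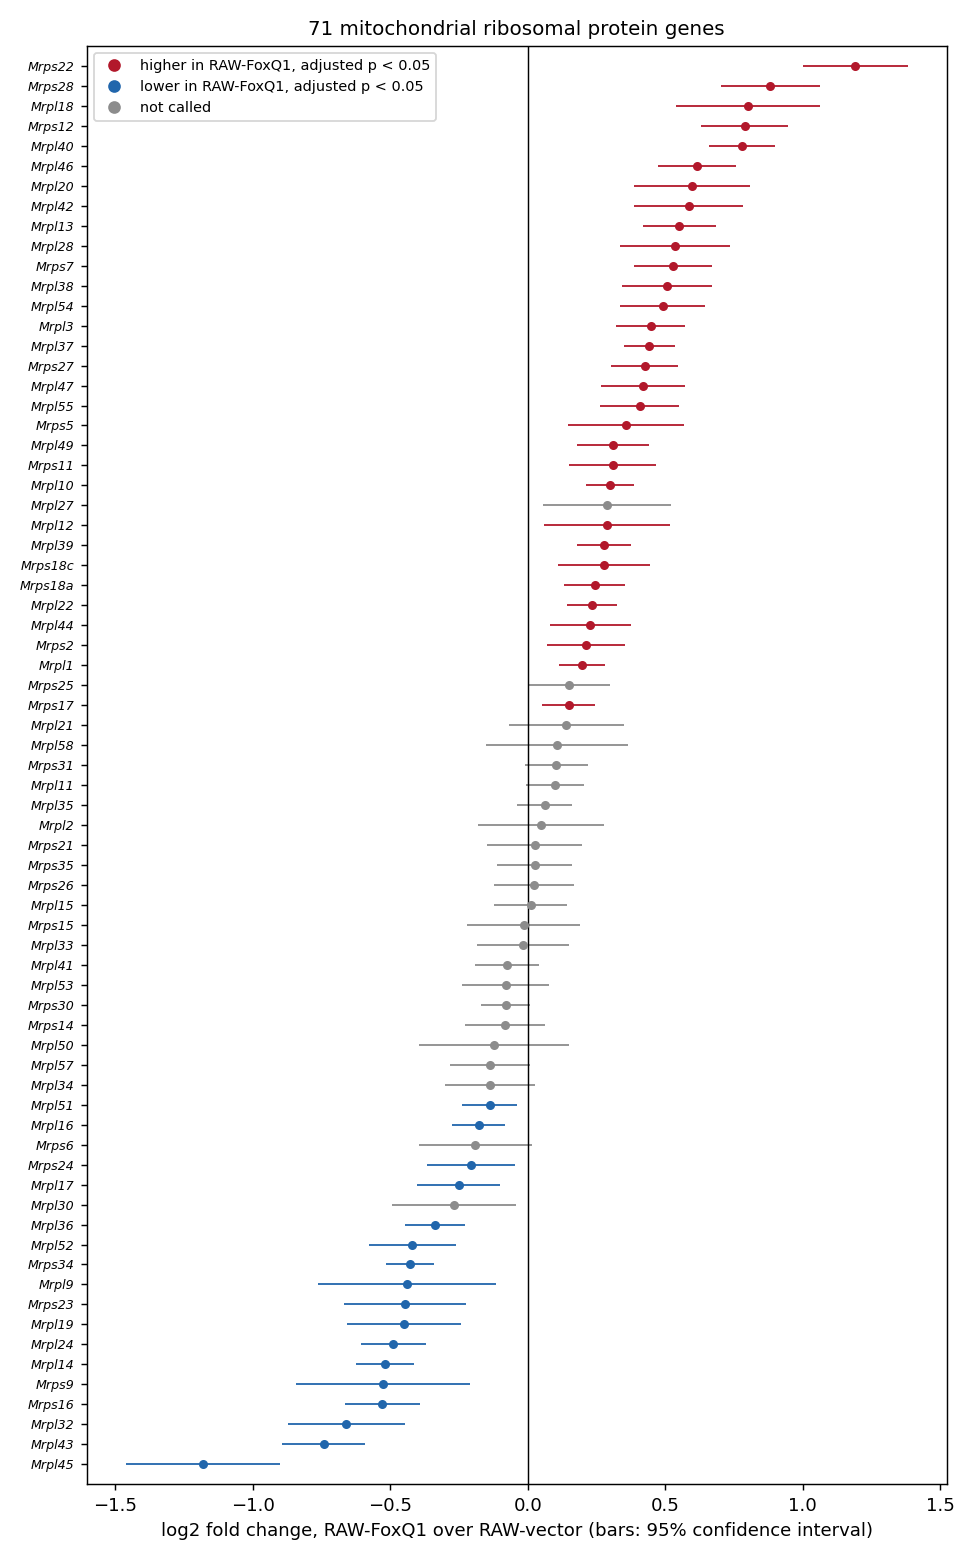
Log2 fold change of RAW-FoxQ1 over RAW-vector clones for each of the 71 members, sorted by size, with 95% confidence intervals before adjustment for multiple testing, in red where called higher, in blue where called lower and in grey where not called. The values run from 1.19 for Mrps22 to -1.18 for Mrpl45, and 23 members are grey.

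Fold changes were modest and spread to both sides. The median log2 fold change of the members was 0.10 and their SD 0.43, against a median of -0.014 over all gene rows. Only 18 members were called with a change of at least 0.5, 12 higher and 6 lower, which is 25.4% of the members, against 15.8% of all gene rows and 34.1% of the rows in the signal range above. The values of the 2 groups did not overlap for 46 members (64.8%), against 36.1% of all gene rows and 57.3% of those in the signal range. Of the 48 called members 44 were apart in this sense, and 2 that were not called, Mrpl27 and Mrps30, were apart as well. With each clone left out in turn, 41 of the 48 calls held in all 9 fits, 27 higher and 14 lower. The remaining calls, of Mrpl12, Mrpl44, Mrps2, Mrps17, Mrpl9, Mrps24 and Mrpl51, held in 3 to 8 of the 9 fits. Without RAW-vector clone 4 all 7 of them were lost (adjusted p of 0.051 to 0.12), and without RAW-vector clone 7 all except Mrpl44. Mrpl12, Mrps24, Mrpl51 and Mrpl9 were also lost without RAW-FoxQ1 clone 7.4 or 7.5, Mrpl12, Mrps24 and Mrpl51 without RAW-vector clone 5, Mrpl9, Mrps24 and Mrps2 without clone 7.2, and Mrpl12 and Mrpl51 without clone 7.1.

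Mrps22, a small subunit protein with no bacterial counterpart that is mutated in a human mitochondrial disease, showed the largest increase. Its log2 values were 10.34, 10.60, 10.60, 10.22 and 10.27 in RAW-FoxQ1 clones 7.1, 7.2, 7.3, 7.4 and 7.5, against 9.22, 9.21, 9.24 and 9.19 in RAW-vector clones 4, 5, 6 and 7, with the clones in this order throughout. The 4 RAW-vector clones lay within a narrow band and the 5 RAW-FoxQ1 clones all lay above it, with clones 7.2 and 7.3 highest. This is a 2.28-fold increase (log2 fold change 1.19, standard error 0.085, adjusted p = 5.8e-06 from limma, exact permutation p = 0.00794, the smallest that 5 clones against 4 allow). Mrps28, the counterpart of bacterial S1, reached 10.44, 10.52, 10.51, 10.52 and 10.77 in RAW-FoxQ1 clones, against 9.52, 9.71, 9.84 and 9.60 in RAW-vector clones (log2 fold change 0.88, standard error 0.080, adjusted p = 2.3e-05). Clone 7.5 stood above the other RAW-FoxQ1 clones here. Mrps12, which lies at the decoding centre, had values of 10.11, 10.05, 10.00, 10.16 and 10.26 in RAW-FoxQ1 clones, against 9.21, 9.40, 9.48 and 9.23 in RAW-vector clones (log2 fold change 0.79, standard error 0.071, adjusted p = 2.1e-05). The gap between the groups of Mrps12 was wider than the whole range within either group.

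Among large subunit genes, 3 increases followed. Mrpl18, the counterpart of the bacterial protein that binds 5S rRNA, gave 10.40, 10.58, 10.53, 10.38 and 10.63 in RAW-FoxQ1 clones, against 9.86, 9.58, 9.38 and 9.99 in RAW-vector clones (log2 fold change 0.80, standard error 0.12, adjusted p = 4.1e-04). The RAW-vector clones varied more than the RAW-FoxQ1 clones, with clone 7 highest and clone 6 lowest. Mrpl40, a protein without a bacterial counterpart, gave 10.38, 10.41, 10.52, 10.39 and 10.54 in RAW-FoxQ1 clones, against 9.65, 9.76, 9.71 and 9.55 in RAW-vector clones (log2 fold change 0.78, standard error 0.054, adjusted p = 4.7e-06). Mrpl46, likewise specific to mitochondria, gave 9.87, 10.04, 10.15, 9.88 and 9.90 in RAW-FoxQ1 clones, against 9.42, 9.38, 9.28 and 9.33 in RAW-vector clones (log2 fold change 0.62, standard error 0.063, adjusted p = 4.8e-05). For these 6 genes the exact permutation p was 0.00794, and the call held with either covariate. They were chosen among called members whose groups lie apart, as were the 6 decreased genes below. Their separation, and the small permutation p that comes with it, therefore adds no support. The other 25 members called higher changed by 0.15 to 0.60, with Mrpl20 (0.60), Mrpl42 (0.59), Mrpl13 (0.55), Mrpl28 (0.54) and Mrps7 (0.53) at the top. Of these, Mrpl13 was called with either covariate. With the glycolysis and hypoxia mean Mrpl20 had a log2 fold change of 0.11 (adjusted p = 0.524), Mrpl28 of 0.44 (adjusted p = 0.188) and Mrps7 of 0.31 (adjusted p = 0.114), and the call of Mrpl42 was lost with both covariates (adjusted p = 0.107 with each).

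In the other direction, Mrpl45 had a change of similar size to that of Mrps22. It encodes the protein that holds the ribosome at the inner mitochondrial membrane, at the mouth of the exit tunnel. Its values were 11.09, 10.79, 10.55, 10.83 and 10.59 in RAW-FoxQ1 clones, against 12.12, 11.91, 11.68 and 12.10 in RAW-vector clones. All RAW-FoxQ1 clones were below all RAW-vector clones, with clone 7.3 lowest in the first group and clone 6 lowest in the second. The level was 2.27-fold lower (log2 fold change -1.18, standard error 0.12, adjusted p = 5.8e-05 from limma, exact permutation p = 0.00794). With the glycolysis and hypoxia mean as a covariate the log2 fold change was -0.49, still called, and the clone with the lowest such mean in each group (9.11 in clone 7.3 and 10.2 in clone 6) was the clone with the least Mrpl45.

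Mrpl43, another mitochondria-specific protein of the large subunit, had values of 11.59, 11.45, 11.22, 11.42 and 11.35 in RAW-FoxQ1 clones, against 12.17, 12.15, 12.09 and 12.20 in RAW-vector clones (log2 fold change -0.74, standard error 0.067, adjusted p = 2.2e-05). Mrpl32, whose maturation by the m-AAA protease precedes ribosome assembly in yeast and mouse, had 10.50, 10.50, 10.61, 10.36 and 10.43 in RAW-FoxQ1 clones, against 11.24, 11.13, 10.84 and 11.34 in RAW-vector clones (log2 fold change -0.66, standard error 0.094, adjusted p = 3.8e-04). The call of Mrpl32 was lost with either covariate (adjusted p = 0.0809 with the poly-A mean and 0.204 with the glycolysis and hypoxia mean). Mrps16, a small subunit protein with a bacterial counterpart, had 11.10, 10.97, 10.78, 10.93 and 10.93 in RAW-FoxQ1 clones, against 11.46, 11.55, 11.48 and 11.38 in RAW-vector clones (log2 fold change -0.53, standard error 0.061, adjusted p = 1.1e-04), and was not called with the glycolysis and hypoxia covariate (adjusted p = 0.0805). Mrpl14, at the interface of the subunits, had 9.69, 9.60, 9.48, 9.56 and 9.46 in RAW-FoxQ1 clones, against 10.08, 10.07, 10.08 and 10.08 in RAW-vector clones (log2 fold change -0.52, standard error 0.047, adjusted p = 2.3e-05). The 4 RAW-vector clones agreed in Mrpl14 more closely than in any other of these 12 genes.

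Mrps9, a small subunit protein whose bacterial counterpart contacts the peptidyl-site tRNA, was the most variable member within the RAW-FoxQ1 clones (SD 0.295). Its values were 10.49, 10.28, 9.74, 10.32 and 10.42 in RAW-FoxQ1 clones, against 10.92, 10.71, 10.62 and 10.86 in RAW-vector clones (log2 fold change -0.53, standard error 0.14, adjusted p = 0.0139). Clone 7.3 lay far below the other 4 RAW-FoxQ1 clones, which were still below all RAW-vector clones, and without it the log2 fold change was -0.40. The call was lost with either covariate, and the direction turned with the glycolysis and hypoxia mean (log2 fold change 0.059, adjusted p = 0.905). The other 11 members called lower changed by -0.49 to -0.14, led by Mrpl24 (-0.49), Mrpl19 (-0.45) and Mrps23 (-0.45). None of these was called with the glycolysis and hypoxia mean (-0.24, adjusted p = 0.0539 for Mrpl24, -0.30, adjusted p = 0.390 for Mrpl19 and -0.14, adjusted p = 0.706 for Mrps23), and Mrps23 was not called with the poly-A mean either (adjusted p = 0.156).

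**Figure D2:**
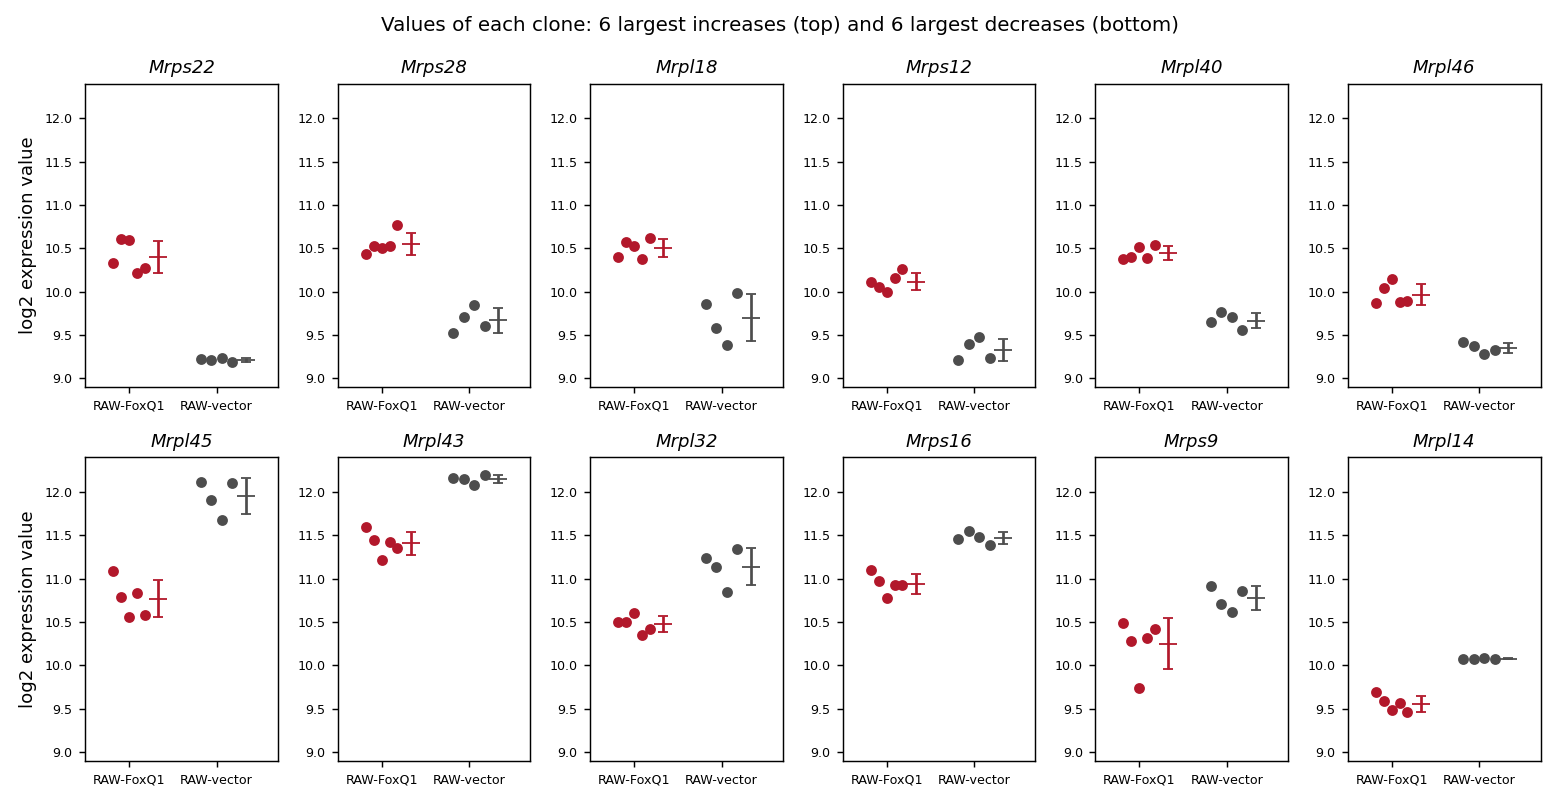
Log2 expression value of each clone for the 6 members with the largest increase (top row) and the 6 with the largest decrease (bottom row), RAW-FoxQ1 clones in red on the left and RAW-vector clones in grey on the right of each panel, with the group mean and SD beside the points. All 12 genes were chosen among called members whose groups lie apart, and clone 7.3 lies at 9.74 in the Mrps9 panel.

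Some members near the threshold were not called. Mrpl27, a large subunit protein close to the peptidyl transferase centre, had 10.99, 11.27, 11.49, 11.07 and 10.96 in RAW-FoxQ1 clones, against 10.94, 10.81, 10.87 and 10.85 in RAW-vector clones (log2 fold change 0.29, standard error 0.10, adjusted p = 0.0504). The groups did not overlap, yet 2 RAW-FoxQ1 clones lay close to the highest RAW-vector clone. Mrpl30, a large subunit protein with a bacterial counterpart, had 13.00, 12.78, 12.56, 12.89 and 12.94 in RAW-FoxQ1 clones, against 13.22, 13.05, 12.89 and 13.23 in RAW-vector clones (log2 fold change -0.27, standard error 0.10, adjusted p = 0.059), and its groups overlapped. Mrps6, the counterpart of bacterial S6, had 11.32, 11.69, 11.39, 11.26 and 11.40 in RAW-FoxQ1 clones, against 11.50, 11.77, 11.65 and 11.48 in RAW-vector clones (log2 fold change -0.19, standard error 0.092, adjusted p = 0.135), also with overlap. In the RefSeq table the loci of Mrpl18, Mrpl43, Mrpl14, Mrpl27 and Mrps18a overlap Tcp1, Twnk, Tmem63b, Eme1 and Rsph9, and where a probe set lies in the shared stretch is not known here. The Mrps6 locus overlaps that of Slc5a3, a sodium/myo-inositol transporter, in the RefSeq table. Leaving out 1 clone changed these outcomes, in that Mrpl27 was called without RAW-FoxQ1 clone 7.1, 7.3 or 7.5 (adjusted p of 0.030 to 0.043), Mrpl30 without RAW-FoxQ1 clone 7.1 or RAW-vector clone 6, and Mrps6 without RAW-FoxQ1 clone 7.2, as were Mrps25 without clone 7.1 and Mrpl35 without RAW-vector clone 6. The other 20 members without a call had log2 fold changes between -0.14 and 0.15. For 13 of the 23 the 95% confidence interval lay within 0.25 of 0 on either side, and for 10 it reached farther.

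Members were called in both directions in each subunit and in each ancestry class. Proteins of the large subunit (48 members, with Mrps30 and Mrps18a, which sit there in spite of their names) included 21 higher and 12 lower, with a median log2 fold change of 0.10. Those of the small subunit (23 members) included 10 higher and 5 lower, with a median of 0.10. Of the 44 members with a bacterial counterpart 20 were higher and 11 lower (median 0.12), and of the 27 without one 11 were higher and 6 lower (median 0.10). By share, 43.8% of the large subunit members were higher and 25% lower, and 43.5% and 21.7% of the small subunit members. With a bacterial counterpart 45.5% were higher and 25% lower, and without one 40.7% and 22.2%. Over all 71 members these shares were 43.7% and 23.9%. In the signal range above they were 34.5% and 31.4% of the gene rows, and over all gene rows 19.6% and 21.4%. The classes were not tested against each other. Mrps18a and Mrps18c, copies of 1 ancestral gene whose products occupy different subunits, were both higher. Mrps18a had 10.19, 10.15, 10.25, 10.26 and 10.30 in RAW-FoxQ1 clones, against 9.88, 10.08, 10.04 and 9.95 in RAW-vector clones (log2 fold change 0.24, standard error 0.050, adjusted p = 0.00312). Mrps18c had 9.88, 10.07, 10.02, 9.86 and 10.20 in RAW-FoxQ1 clones, against 9.68, 9.79, 9.62 and 9.82 in RAW-vector clones (log2 fold change 0.28, standard error 0.075, adjusted p = 0.0141). Each separated the groups, and both calls were lost with the glycolysis and hypoxia covariate. Mrps30 had 10.41, 10.34, 10.37, 10.41 and 10.26 in RAW-FoxQ1 clones, against 10.41, 10.45, 10.48 and 10.41 in RAW-vector clones (log2 fold change -0.081, 95% confidence interval -0.17 to 0.0078, adjusted p = 0.138). Its values touched at the second decimal without overlap and the change was not called.

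Within the large subunit, 3 structural regions were read out after the values were known, so their counts are a description. Of the gene rows in the signal range above 34.5% were called higher and 31.4% lower, and of all gene rows 19.6% and 21.4%. With 3 to 8 measured genes each, no region was tested against these shares. The central protuberance, the crown of the large subunit that faces the head of the small subunit, is built in mammalian mitochondria from Mrpl18, Mrpl27, Mrpl38, Mrpl40, Mrpl46, Mrpl48, Mrpl52, Mrpl55 and Mrpl58. Of the 8 measured, 5 were higher, namely Mrpl18, Mrpl40, Mrpl46, Mrpl38 (0.51) and Mrpl55 (0.41), Mrpl52 was lower (-0.42), and Mrpl27 and Mrpl58 did not pass. The calls of Mrpl55 (adjusted p = 0.0885 with the poly-A mean and 0.274 with the glycolysis and hypoxia mean) and of Mrpl52 (0.262 and 0.185) were lost with both covariates, and the other 4 were kept. The stalk, which recruits translation factors, was higher in Mrpl10 (0.30, adjusted p = 2.1e-04) and Mrpl12 (0.29, adjusted p = 0.048), while Mrpl11 had a log2 fold change of 0.10 (adjusted p = 0.121). With both covariates the calls of Mrpl10 (adjusted p = 0.0948 with the poly-A mean and 0.0712 with the glycolysis and hypoxia mean) and of Mrpl12 (0.206 and 0.858) were lost. Mrpl12, which in human cells also binds the mitochondrial RNA polymerase, overlapped between groups, with 11.54, 11.43, 11.43, 11.87 and 11.73 in RAW-FoxQ1 clones and 11.21, 11.39, 11.46 and 11.19 in RAW-vector clones. Around the tunnel exit, where nascent chains leave towards the membrane, calls were made on both sides. Mrpl45, Mrpl24 (-0.49) and Mrpl17 (-0.25) were lower, and Mrpl47 (0.42) and Mrpl22 (0.23) were higher. Of these 5 only Mrpl45 was called with both covariates. The higher calls, of Mrpl47 (adjusted p = 0.0829 with the poly-A mean and 0.286 with the glycolysis and hypoxia mean) and Mrpl22 (0.153 and 0.456), were lost with both, that of Mrpl24 with the glycolysis and hypoxia mean (0.0539) and that of Mrpl17 with the poly-A mean (0.143).

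Each clone carried both sides of this picture. The mean of the 31 members called higher was 10.04 in RAW-FoxQ1 clone 7.1 and 10.15 in clone 7.5, the lowest and the highest of that group, against 9.60 to 9.66 in RAW-vector clones. The mean of the 17 called lower was 10.22 to 10.35 in RAW-FoxQ1 clones, against 10.63 to 10.80 in RAW-vector clones. These members were chosen by the same values, so the means only show how evenly the clones contribute. Over all 71 members the mean level was 10.17 to 10.21 in RAW-FoxQ1 clones and 10.08 to 10.11 in RAW-vector clones. The mean distance of a member from its group mean was largest in clone 7.3 (0.121). Clones 7.2 and 7.3 deviated in the same members more than any other RAW-FoxQ1 pair (r = 0.49 over 71 members). The most opposed pairs were clones 7.2 and 7.4 (r = -0.76) and clones 7.1 and 7.3 (r = -0.72). All are a description over genes that share an array and a group mean, and the shared mean pulls r below 0.

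Among gene families around the mitochondrial ribosome, the cytosolic ribosome had most of its calls on the lower side. Of 23 cytosolic ribosomal protein rows, paralogs included, 2 were higher and 12 were lower in RAW-FoxQ1 clones, with a median log2 fold change of -0.24. That is 8.7% higher and 52.2% lower, against 19.6% and 21.4% of all gene rows. Some of these rows were dim, among them Rps15a, called higher, at the 12.3 percentile of mean signal, and Rpsa at the 23.7 percentile. Such rows may measure their gene poorly. Subunits and assembly factors of the respiratory chain and ATP synthase had 31 higher (37.8%), 18 lower (22%) and 33 not called of 82 rows and a median of 0.092. The families were set side by side without a test of their difference.

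**Figure D3:**
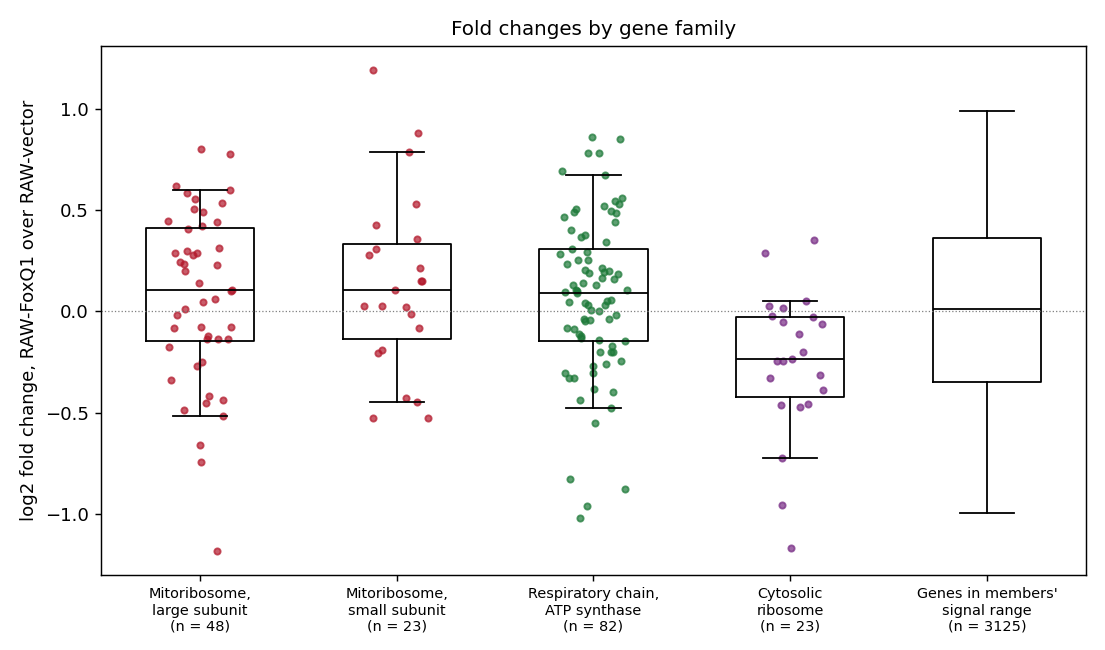
Log2 fold change of RAW-FoxQ1 over RAW-vector clones for members of the large and of the small subunit, for the respiratory chain with ATP synthase, for the cytosolic ribosome and for all 3125 gene rows in the signal range of the members. Points are genes (drawn for families only), boxes span the quartiles with the median, and whiskers reach the 5 and 95 percentiles. Medians are 0.10 in both subunits and -0.24 in the cytosolic ribosome.

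The genes that work with the mitochondrial ribosome were read from lists written with earlier results known. The share called was 65% of the synthetases, 63.6% of the translation factors and 60% of the assembly factors. It was 66.7% of the genes of mitochondrial transcription, RNA processing and replication, and 36.4% of the nuclear regulators. For comparison, 40.9% of all gene rows were called (19.6% higher, 21.4% lower), and 66.0% of the rows in the signal range of the members (34.5% higher, 31.4% lower). That range, log2 means of 9.10 to 11.3, does not match the brightness of the lists. The synthetases lay at the 35.4 to 84.7 percentile of mean signal and the regulators at the 3.43 to 97.4 percentile. No list was tested against rows of its own brightness. Of 20 mitochondrial aminoacyl-tRNA synthetases and amidotransferase subunits, which charge the tRNAs used by this ribosome, 11 were higher and 2 were lower (median log2 fold change 0.21). Cars2, for cysteine, changed by 1.17 (standard error 0.040, adjusted p = 7.8e-08) and Rars2, for arginine, by 0.61. On the lower side were Vars2 (-0.26), for valine, and Nars2 (-0.24), for asparagine. Of 11 measured translation factors and mRNA partners 5 were higher and 2 lower. The elongation factor Gfm1, which moves the ribosome along the message, changed by 0.94 (adjusted p = 9.1e-06), the mRNA stability factor Lrpprc by 0.90 and the back-translocase Guf1 by 0.52, against -0.30 for the initiation factor Mtif3 and -0.29 for the recycling factor Mrrf.

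Assembly and rRNA maturation factors were divided, with 9 higher and 6 lower of 25. Fastkd2, an RNA-binding protein needed for the large subunit rRNA, changed by 0.99 (adjusted p = 1.0e-05), and the rRNA methyltransferases Mrm2 and Mrm3 by 0.39 and 0.38. Oxa1l, the insertase that receives nascent chains at the inner membrane next to Mrpl45, was lower like that gene (-0.57, adjusted p = 2.2e-05), as were Mpv17l2 (-0.48) and the RNA granule protein Grsf1 (-0.44). Ribosomal proteins that carry other symbols showed 1 change, an increase of Gadd45gip1 (0.33, adjusted p = 0.00155), whereas Dap3 (-0.071), Chchd1 (0.098) and Aurkaip1 (0.086) were not called.

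For the mitochondrial genome itself, 6 of 15 genes of transcription, RNA processing and replication were higher and 4 were lower. The RNA-degrading enzyme Pnpt1 changed by 0.69 (adjusted p = 3.8e-05), the RNA polymerase Polrmt by 0.35 and the DNA polymerase Polg by 0.32, against -0.49 for the poly(A) polymerase Mtpap, -0.39 for Hsd17b10, a subunit of mitochondrial RNase P, and -0.32 for Polg2, the accessory subunit of the DNA polymerase. Among 11 nuclear regulators of mitochondrial genes, Nrf1, the factor that binds the NRF1 motif printed above, was the 1 that was higher (0.40, adjusted p = 3.9e-04), and Esrra (-0.31), Tfeb (-0.28) and Sp1 (-0.23) were lower. Ppargc1a, the best known coactivator of mitochondrial genes, was near the bottom of the signal range at 6.21 in RAW-FoxQ1 clones and 6.17 in RAW-vector clones and was not called. Of the list genes named with a call, Cars2, Gfm1, Lrpprc, Guf1, Fastkd2, Oxa1l, Pnpt1 and Nrf1 were called with either covariate. The others lost the call with at least 1 of them, and Polg2 (both covariates), Hsd17b10 and Grsf1 (glycolysis and hypoxia mean) turned direction.

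**Figure D4:**
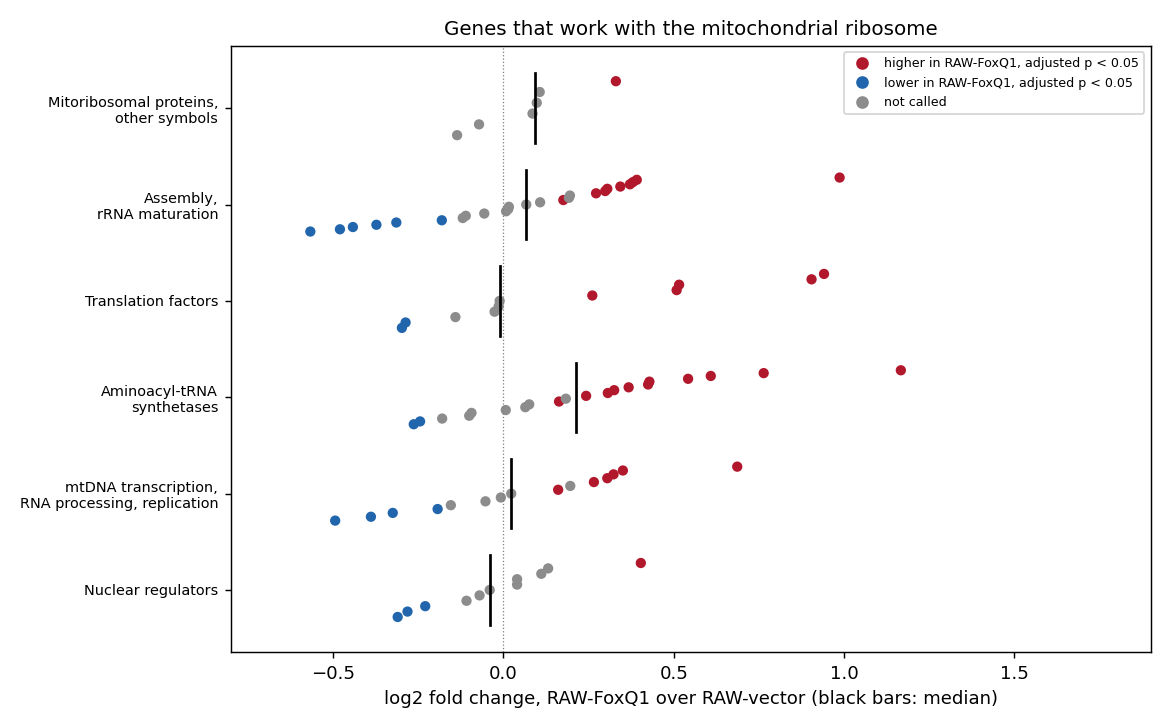
Log2 fold change of RAW-FoxQ1 over RAW-vector clones for the genes of the 6 lists, 1 point per gene, in red where called higher, in blue where called lower and in grey where not called, with a black bar at the median of each list. The synthetases have the highest median, 0.21, and 11 red points. Mrpl57 and Mrpl58 appear in the top list as well as among the members.

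Many mitochondrial ribosomal protein genes share a start region with a neighbour on the opposite strand. With annotated starts within 1000 bases, 22 of the 63 members with an entry (34.9%) had such a head-to-head partner, against 1258 of the 12594 genes (10.0%). The 22 members form 21 pairs, because Mrpl46 and Mrps11 are partners of each other, and both genes were on the array in 19 pairs. In 8 pairs both genes were called, 4 in the same direction and 4 in opposite ones. For single genes the share called was 40.9% of all gene rows and 66.0% of those in the signal range of the members. The pairs were not tested against these shares. Mrpl46 and Mrps11 (0.31) were higher together, as were Mrpl18 and the chaperonin subunit Tcp1 (0.41) and Mrps18c and the helicase Helq (0.39), and Mrpl14 was lower together with Tmem63b (-0.60). The loci of Mrpl18 and Tcp1 overlap, as do those of Mrpl14 and Tmem63b. Whether a probe set of these pairs lies in the shared stretch is not known here, so their signals may not be separate. The opposite pairs were Mrps7 (0.53) with Gga3 (-0.28), Mrpl47 (0.42) with the complex I subunit Ndufb5 (-0.30), Mrpl51 (-0.14) with the condensin subunit Ncapd2 (2.29), and Mrpl32 (-0.66) with the proteasome subunit Psma2 (0.34). Some of the largest increases had a partner that was not called, namely Mrps12 with Sars2 (0.064), the gene of the mitochondrial seryl-tRNA synthetase, and Mrpl40 with the histone chaperone Hira (0.081). In other pairs only the partner was called. It was higher for Mrpl27 with Eme1 (1.22), whose loci overlap as well, Mrpl57 with Ska3 (0.97) and Mrpl30 with Mitd1 (0.35). It was lower for Mrpl2 with Klc4 (-0.45) and Mrpl41 with Pnpla7 (-0.31). Among the members of the 8 pairs, Mrpl18, Mrpl46 and Mrpl14 kept their own call with both covariates. A shared start region occurred with partners that followed the member and with partners that did not.

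**Figure D5:**
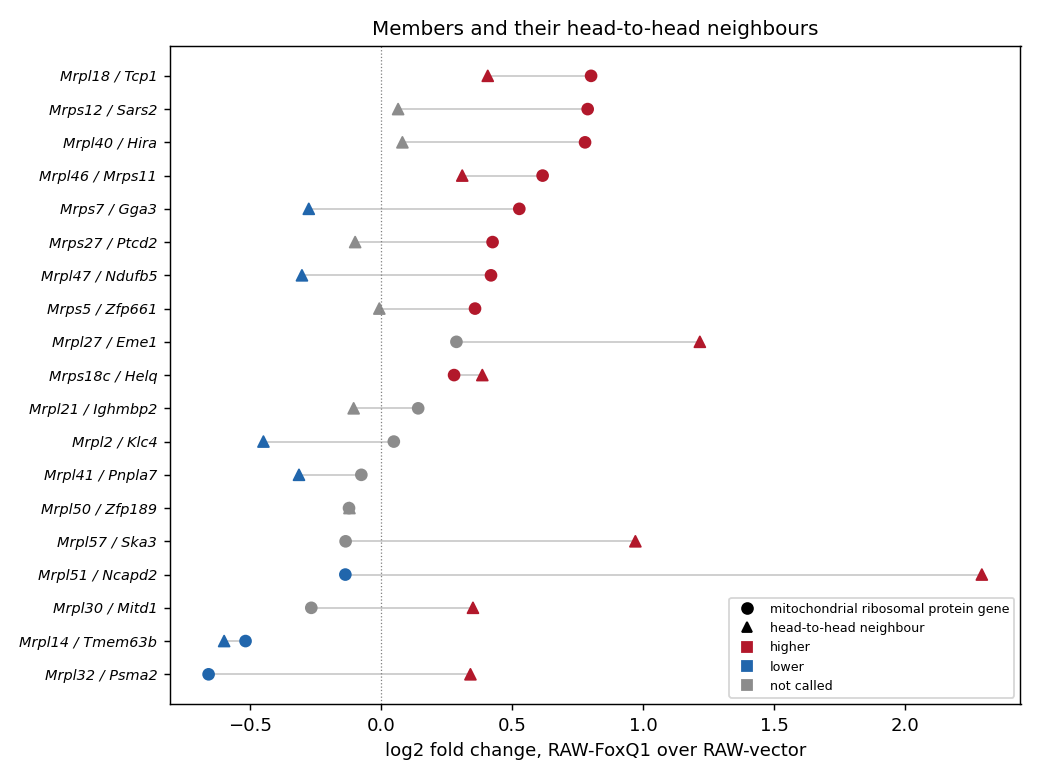
Log2 fold change of RAW-FoxQ1 over RAW-vector clones for the 19 head-to-head pairs with both genes on the array, the member as a circle and its neighbour as a triangle on the same line, coloured by call. The longest line joins Mrpl51 at -0.14 and Ncapd2 at 2.29, and Mrpl46 with Mrps11 is the 1 pair in which both are members.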

How the data were processed

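Total RNA of 9 RAW-264.7 clones (5 RAW-FoxQ1, 4 RAW-vector) was hybridized to Affymetrix Mouse Genome arrays. The deposited values are on the log2 scale, and the authors obtained them with gene definitions based on Entrez and quantile normalization, and the submitters' processing notes name RMA, version not given. The array median is 7.49 for every clone. The number of arrays limits the precision. Scanner files were not used here, so background correction was not varied.

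All tests used R 4.3.3 and limma 3.58.1 (lmFit, eBayes, group as the only term) on 16492 gene rows after 64 control rows were left out, with Benjamini-Hochberg adjustment over all rows and calls at an adjusted p under 0.05. A platform table named 15270 rows and the RefSeq table a further 988, and 234 stay unnamed. Single values were also tested by exact permutation of the group labels over the 9 clones (two-sided), which cannot go below p = 0.00794. The replicates are separate clones, and no replicate number is shared between groups. The fit was tested on simulated data.

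Named with every clone's value were, among called members whose groups lie apart, the 6 that increased most and the 6 that decreased most, the 3 uncalled members with the largest change, the Mrps18 copies and Mrps30. Of each list the 3 called genes per direction with the largest change were named, other genes after their values were seen, and 1 gene that this rule names is not reported here. The members and lists were chosen with earlier results of these data known. 2 pseudogene rows, Mrpl23-ps1 and Mrpl27-ps, were kept apart. Alternatives were the methods' one-way ANOVA, trend and robust moderation, array weights, repeated quantile normalization, median centring, a filter at the 40 percentile of signal, averaged rows, a log2 fold change of at least 0.5, the poly-A and the glycolysis and hypoxia means as covariates, and each clone left out.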

Additional observations from a re-analysis of the deposited data

Results flagged for a closer look

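Among 92 groups of 4 or 5 clones of the named genes, 3 held 1 clone set apart from the rest by Dixon's test at the 95% level, and chance alone gives this in about 1 in 20 groups. Mrps28 was 10.8 in RAW-FoxQ1 clone 7.5, while the rest of its group lay at 10.4 to 10.5. Mrps9 was 9.74 in RAW-FoxQ1 clone 7.3, while the rest lay at 10.3 to 10.5. Nars2, the mitochondrial asparaginyl-tRNA synthetase, was 7.79 in RAW-vector clone 6, while the rest lay at 7.90 to 7.92.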

How the results depend on the processing

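With the methods' one-way ANOVA, trend and robust moderation, array weights, repeated quantile normalization, median centring, the signal filter or averaged rows, 30 to 32 members were called higher and 15 to 18 lower. Leaving out each clone in turn gave 27 to 32 higher and 14 to 18 lower, with medians of 0.079 to 0.12. A fold change of at least 0.5 left 12 higher and 6 lower. With the poly-A mean as a covariate 16 members were higher and 7 lower, the median was 0.17, and 16.6% of all gene rows were called. With the glycolysis and hypoxia mean 9 were higher and 7 lower, and 13.1% of all gene rows were called. The 7 lower include Mrpl41 (-0.31, adjusted p = 0.0251 from limma) and Mrpl57 (-0.40, adjusted p = 0.0346), which gained a call in this fit. Both means differ between the groups (r = -0.86 and -0.88 with the group over 9 clones), so each covariate also takes up part of the group difference. 14 of the 48 calls were kept with the glycolysis and hypoxia mean and 23 with the poly-A mean. Directions turned with the poly-A mean for Mrpl27 (-0.022) and Polg2 (0.0041), and with the glycolysis and hypoxia mean for the called members Mrps9 (0.059), Mrpl9 (0.18), Mrps24 (0.031) and Mrps2 (-0.022), for Mrpl30 (0.19) and for Hsd17b10 (0.30), Polg2 (0.12) and Grsf1 (0.081). Among all members 9 turned with each covariate, which with the poly-A mean included 0 called ones. The cause was not tested. No paired analysis was possible because the groups share no clone number. Array signal was compared between genes only as brightness and not as an amount of RNA, and dim regulators such as Ppargc1a lie near the bottom of the signal range.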

Other observations

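Mrpl23-ps1 and Mrpl27-ps, annotated as pseudogenes, have rows of their own. Mrpl23-ps1 had log2 values of 10.9 to 11.5 in RAW-FoxQ1 clones and 11.7 to 11.9 in RAW-vector clones (log2 fold change -0.57, adjusted p = 0.00186 from limma), and Mrpl27-ps was not called (0.098, adjusted p = 0.526). Probes of such copies can also bind the parent transcript, so the source of either signal is uncertain.

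Glycolysis and hypoxia genes were lower in 19 of 25 cases in RAW-FoxQ1 clones and higher in 0, with 6 not called and a median log2 fold change of -0.93. That is 76% lower, against 21.4% of all gene rows. Ndrg1, a stress-response gene, had a log2 fold change of -3.44 and Ddit4, an inhibitor of mTOR signalling, one of -2.47. The hexose transporter gene Slc2a1 had -0.81. Pkm, the pyruvate kinase of the last step of glycolysis, was not called (0.15).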
